A study of Mus musculus with 6 samples.

Results

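Loci of mouse chromosome 10 were compared between Neuro2a (N2a) cells with and without nemo-like kinase (Nlk). N2a is a neuroblastoma line of mouse origin. A locus is 1 row of the deposited expression table, most often 1 gene, and a member is a chromosome 10 locus whose mean over all 6 libraries was at least 0.5 FPKM (fragments per kilobase of transcript, scaled to the mapped fragments of the library). Of the 1269 chromosome 10 loci, 646 were members and 623 lay below that level, 244 of which were listed at 0 in every library. Over the whole genome 12667 of 26657 loci reached the same level. The chromosome was chosen because its loci were lower in Nlk-KO cells as a whole, so the values of the shift are a description and carry no test.

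RNA was sequenced from 3 WT and 3 Nlk-KO libraries, labelled as biological replicates, to examine the effect of Nlk loss. WT libraries came from isogenic N2a controls, and whether these were the parent line or clones is not stated. Nlk-KO cells had been made by transfecting Cas9 nickase with paired guide RNAs against Nlk, followed by puromycin selection or cell sorting. The paper's methods also list a Cas9 plasmid with GFP beside the nickase plasmid. Single clones were grown, and those with no detectable Nlk protein were kept. N2a cells are polyploid, so the edit was judged by the remaining protein. The sources used here do not say which clone each Nlk-KO library came from, and no measurement of DNA was used here. Nlk loss and what else sets the chosen clones apart from the WT controls thus cannot be told apart. Every p-value below is judged against the scatter among the 6 libraries, part of which may be technical. In such bulk RNA, fewer cells of a type and less RNA per cell cannot be told apart.

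Mouse chromosome 10 is an acrocentric autosome, with the centromere at the low end of the coordinate scale, and its genes serve many unrelated functions, from ribosomal proteins to synaptic vesicle proteins. Neighbouring genes on a chromosome share the number of DNA copies in the cell and often share chromatin state, while each keeps its own promoter. Nemo-like kinase phosphorylates serines and threonines that precede a proline, is best known for its action on Wnt/TCF signalling, and is encoded on another chromosome.

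Promoter sequences are shown for genes at both ends of the distribution, the 2 highest and the 2 lowest by fold change among genes departing from the chromosome at 5 FPKM or more, without overlap between genotypes and with a RefSeq promoter entry. They are the 250 bases before the start of the RefSeq gene (GRCm38.p6, the same build as mm10), on the strand of the gene and read 5′ to 3′. Capitals mark matches on either strand. The motifs searched were the TATA box with the letters TATAAA, the E-box with the letters CACGTG, the GC box with the letters GGGCGG and the TCF/LEF site with the letters CTTTGAT. The CArG box, bound by serum response factor, was added only after the sequence of Cnn2 had been seen.
Cnn2, chr10:79988350-79988599, plus strand: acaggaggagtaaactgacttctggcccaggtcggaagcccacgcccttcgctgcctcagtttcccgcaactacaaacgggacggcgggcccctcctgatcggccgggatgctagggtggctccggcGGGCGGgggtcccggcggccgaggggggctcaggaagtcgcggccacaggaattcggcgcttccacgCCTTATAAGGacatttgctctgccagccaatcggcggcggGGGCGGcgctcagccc
C920009B18Rik, chr10:22306532-22306781, plus strand: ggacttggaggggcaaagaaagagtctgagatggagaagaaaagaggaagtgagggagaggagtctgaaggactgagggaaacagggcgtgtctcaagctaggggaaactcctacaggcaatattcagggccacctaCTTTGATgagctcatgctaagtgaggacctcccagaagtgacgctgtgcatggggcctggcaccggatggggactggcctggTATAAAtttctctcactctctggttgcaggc
Myb, chr10:21160985-21161234, minus strand: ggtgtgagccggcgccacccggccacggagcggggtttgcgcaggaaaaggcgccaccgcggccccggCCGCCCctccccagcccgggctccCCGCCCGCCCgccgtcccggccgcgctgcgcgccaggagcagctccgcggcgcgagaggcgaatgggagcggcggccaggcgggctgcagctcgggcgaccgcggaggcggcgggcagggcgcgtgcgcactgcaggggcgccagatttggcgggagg
D10Bwg1379e (Arfgef3 in RefSeq), chr10:18743759-18744008, minus strand: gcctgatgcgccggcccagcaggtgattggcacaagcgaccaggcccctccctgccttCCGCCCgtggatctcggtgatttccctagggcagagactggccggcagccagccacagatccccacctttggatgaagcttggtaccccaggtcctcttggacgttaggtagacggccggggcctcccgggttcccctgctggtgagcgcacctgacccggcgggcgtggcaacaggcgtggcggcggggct

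The promoter of Cnn2 held 2 GC boxes and 1 CArG box, and 68.4% of its bases were G or C. That of C920009B18Rik held 1 TATA box and 1 TCF/LEF match, with 53.6% G or C and 3 CpG dinucleotides. The promoter of Myb held 3 GC boxes, partly overlapping each other, in 81.2% G or C with 40 CpG dinucleotides, and that of D10Bwg1379e held 1 GC box in 68.4%. RefSeq gave an entry for 476 of the 646 members, which came to 468 distinct promoters. A GC box lay in 63.5% of these, against 33.0% of all 27025 promoters, which include genes not expressed here. An E-box lay in 10.3% of members and 6.04% of all promoters, a TATA box in 7.05% and 13.0%, and a TCF/LEF match in 2.78% and 3.26%. A CArG box lay in 4 member promoters (0.855%), those of Cnn2, Mknk2, Ranbp2 and 4930455C13Rik, against 1.41% of all. GENCODE M21 places the start of Cnn2, C920009B18Rik and D10Bwg1379e inside the window shown, upstream of the RefSeq start. These matches are a description of the letters and not evidence of binding.

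Nlk, on chromosome 11, was measured first as a check of the labels. It stood at 15.8, 16.6 and 16.1 FPKM in the WT libraries and at 6.78, 7.01 and 6.83 FPKM in the Nlk-KO libraries. The transcript fell by 1.22 on the log2 scale (SE 0.037; adjusted p = 1.36e-06, limma with Benjamini-Hochberg adjustment over 12667 loci), so that the groups were apart but the mRNA was still present. All 12 markers of sympathoadrenal neuroblastoma, Hand2 and Chga among them, were above 0.5 FPKM, with sums of 1746 to 1831 FPKM in WT and 1622 to 1639 FPKM in Nlk-KO libraries. Of 7 fibroblast markers only Fbln1 and Pdgfra exceeded it (sums 136 to 153 FPKM in WT, 200 to 213 FPKM in Nlk-KO), and of 6 macrophage markers found in the table none did. Total reads are not known, but steps in the low values put depth relative to WT 1 between 0.979 and 1.29.

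Across chromosome 10 the median member had 86.7% of its WT level in Nlk-KO cells, against 99.8% for loci on other chromosomes. On the scale of log2(FPKM + 0.1), used for all fold changes here, the median difference was -0.20, with quartiles of -0.32 and -0.04, and that of the other loci was -0.0031. Differences were negative for 513 of 646 members (79.4%) and for 50.6% of other loci. The 3 WT libraries had chromosome 10 medians of 0.091, 0.106 and 0.076 above the mean of the 6 libraries, and the Nlk-KO libraries had medians of -0.084, -0.105 and -0.096 (pooled SD 0.013, n = 3 per genotype). No WT library overlapped with a Nlk-KO library in this value. Between single libraries of different genotype the chromosome 10 median differed by -0.211 to -0.159, while between libraries of the same genotype it differed by -0.038 to 0.012, and the medians of other loci stayed between -0.027 and 0.017 in every pair.

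**Figure D1:**
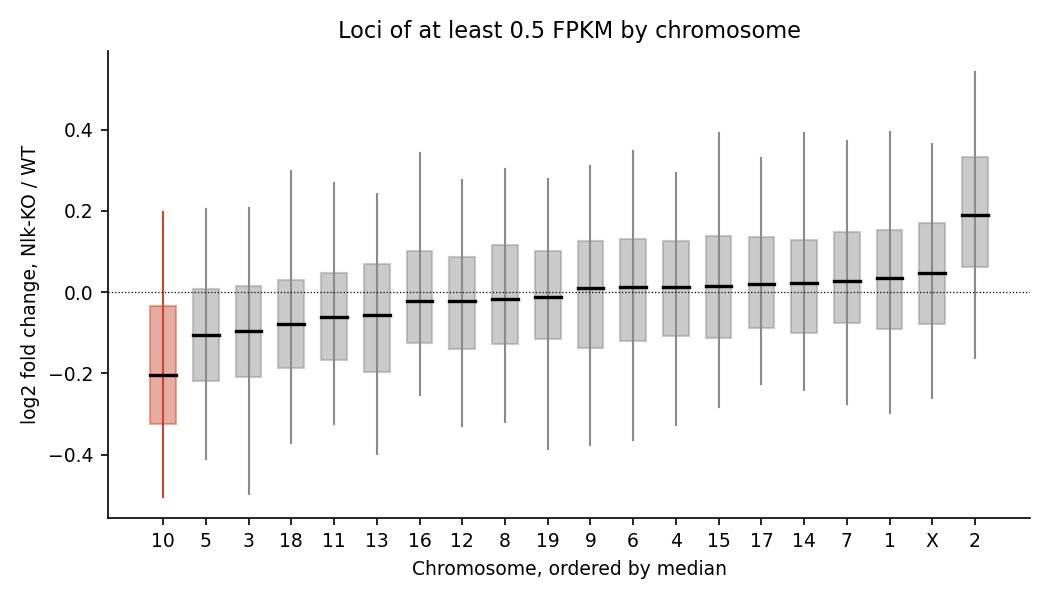
Distribution of the log2 fold change (Nlk-KO over WT, vertical axis) for each chromosome (horizontal axis, ordered by median), with boxes for quartiles, black lines for medians and vertical lines from the 10% to the 90% point. Chromosome 10 (red) lies lowest with a median of -0.20, chromosome 2 lies highest at 0.19, and the boxes are of similar height.

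The other 19 chromosomes had medians between -0.11 (chromosome 5) and 0.19 (chromosome 2). The interquartile range of chromosome 10 was 0.289, against 0.268 for all other loci and 0.213 to 0.270 for single chromosomes. The distance to the other loci was -0.15 at the 5% point, -0.19 at the lower quartile, -0.17 at the upper quartile and -0.20 at the 95% point. Split into 4 equal groups by mean FPKM, the 162 weakest members (0.504 to 4.07 FPKM) had a median of -0.29 and the next 3 groups had medians of -0.19, -0.20 and -0.19, while other loci in the same ranges lay between -0.02 and 0.0015. The 49 members without a gene symbol stood at -0.40, and 885 such loci elsewhere at -0.10. Replicates varied by a median of 4.43% (coefficient of variation) in WT and 4.41% in Nlk-KO libraries.

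Of the 646 members, 326 (50.5%) were called lower in Nlk-KO cells, 52 (8.05%) were called higher and 268 were not called (limma, adjusted p under 0.05). Over all loci tested 18.5% were called lower and 18.6% higher, and no test is drawn from the contrast that chose the chromosome. With the libraries rescaled to the same sum of FPKM over loci of at least 300 bp with a symbol, the counts were 23 lower and 20 higher. With the same sum over all loci they were 3 and 0. Length was that of the locus, so both sums held the microRNA gene Mir677 (45893, 0 and 43667 FPKM in WT, 0 in every Nlk-KO library). Those scalings moved the median of all loci to 0.05 and 0.19, while the distance of chromosome 10 from other loci stayed at -0.20 in both. Values of the genotypes did not overlap for 379 members lower and 73 members higher in Nlk-KO cells (background 25.9% and 25.1% of all loci). Among the members called, 9 were more than 2-fold lower and 7 more than 2-fold higher. The matching share over all loci was not counted, so nothing about the chromosome is read from these numbers.

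At the scale of 10 Mb the shift ran along the entire chromosome. Members were spread from base 3366150 to base 128960988, and all 13 windows of 10 Mb, placed by the start of the locus, had a negative median. In each of the 13 windows the medians of all 3 Nlk-KO libraries lay below those of all 3 WT libraries. Among the 12 windows with at least 20 loci, medians ran from -0.28 at 80 to 90 Mb (118 loci, 79 called lower, 2 higher) to -0.09 at 120 to 130 Mb (93 loci, 32 lower, 10 higher). In the lowest window the WT libraries stood at 0.141, 0.180 and 0.099 and the Nlk-KO libraries at -0.158, -0.133 and -0.137. In the highest window they stood at 0.037, 0.068 and 0.052 and at -0.027, -0.062 and -0.071. The gap between genotypes was thus narrower at the distal end, and it was present in every 10 Mb window.

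**Figure D2:**
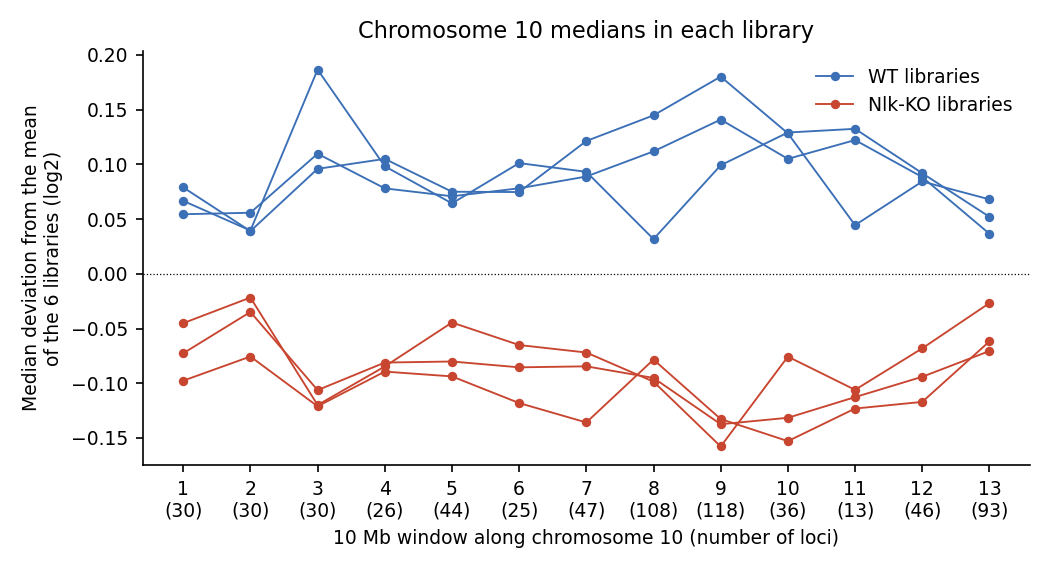
Median deviation of chromosome 10 loci from their mean over the 6 libraries (log2, vertical axis) in each 10 Mb window (horizontal axis, number of loci in brackets), 1 line per library. The 3 WT lines (blue) lie above 0 and the 3 Nlk-KO lines (red) below 0 in all 13 windows, closest together in windows 2 and 13.

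The first 20 Mb were also less displaced, with medians of -0.14 and -0.13 over 30 loci each. Within them, windows of 5 Mb stood at -0.03 at 0 to 5 Mb (8 loci), and at -0.15 at 5 to 10 and at 10 to 15 Mb. At 15 to 20 Mb the median was -0.08 (13 loci, 2 called lower, 3 higher). Medians of 10 Mb windows then lay between -0.24 and -0.16 from 20 to 80 Mb and at -0.24 from 90 to 100 Mb. In windows of 5 Mb the segments of 80 to 85, 85 to 90 and 90 to 95 Mb had medians of -0.27, -0.30 and -0.30 (87, 31 and 24 loci), followed by -0.07 at 95 to 100 Mb over 12 loci. A median of -0.03 at 110 to 115 Mb (12 loci) preceded -0.28 at 115 to 120 Mb (34 loci) and -0.05 at 120 to 125 Mb (18 loci). Segments with so few loci are uncertain. Library medians of the genotypes were apart in 24 of 26 such windows and overlapped at 45 to 50 Mb (7 loci, Nlk-KO 1 at 0.062 above WT 2 at 0.022) and at 110 to 115 Mb (Nlk-KO 1 at 0.024 above WT 2 at 0.0091). The running median over 25 neighbouring members was below 0 at all 622 positions. It was lowest, at -0.37, around Utp20, a component of the small subunit processome, and highest, at -0.05, around the locus that merges Cyp27b1 and Mettl1. Loci that share a run of reads share their coordinates in the table (234 members, up to 37 in 1 locus). Placed by the start of the annotated gene instead, 80 to 90 Mb held 136 loci with a median of -0.28 and 120 to 130 Mb held 94 with -0.09.

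**Figure D3:**
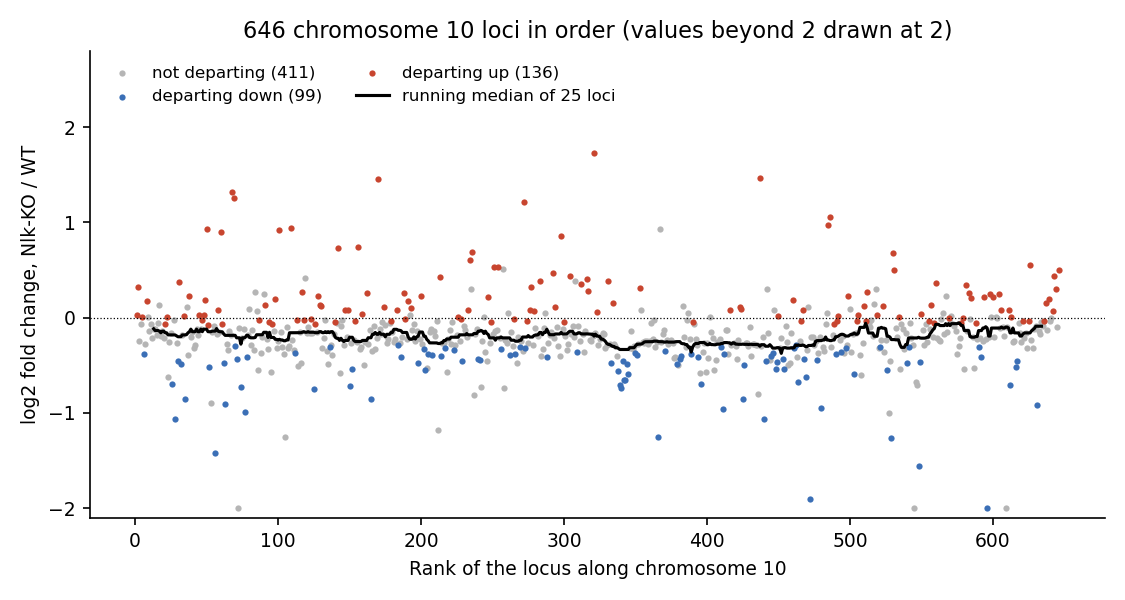
The log2 fold change of each of the 646 members (vertical axis, 4 values beyond 2 drawn at the limit) against its rank along chromosome 10 (horizontal axis), with the running median of 25 loci in black. Loci departing from the chromosome up (136, red) and down (99, blue) occur over its length but unevenly, with more down at 80 to 90 Mb and more up at 120 to 130 Mb. The running median stays between -0.37 and -0.05.

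Windows of the other chromosomes were set beside these as a description. The distance between the lowest and the highest 10 Mb window was 0.184 on chromosome 10, and 0.052 to 0.240 (median 0.128) on the other 19. Chromosome 5 had windows from -0.17 to -0.06, all 11 of them negative, and chromosome 2 had windows from 0.07 to 0.25, all 18 of them positive. The lowest window elsewhere was at -0.18, on chromosome 18, above the lowest window of chromosome 10.

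Among loci with a gene symbol, the 3 just above the level for membership were LOC100504608 (mean 0.511 FPKM), Myo1a (0.537 FPKM) and Tmem200a (0.550 FPKM). Just below it, again with a symbol, were Wisp3 (0.497 FPKM), Egr2 (0.496 FPKM) and Amh (0.496 FPKM). At such levels single libraries of 1 genotype spread widely, from 0.291 to 0.544 FPKM in the Nlk-KO libraries for LOC100504608.

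Genes that depart from the chromosome were then sought with the same fit after the median over each chromosome's loci had been subtracted from each library, which removed a difference of -0.19 for chromosome 10. After this step 136 members (21.1%) were higher than the rest of the chromosome and 99 (15.3%) were lower, against 16.5% and 15.9% of all loci relative to their own chromosomes, and 411 were not called. All 52 members called higher before the step also departed upward, and the other 84 upward departures had no call before it. Of the 326 members called lower, 227 did not depart from the chromosome and 99 departed downward. The step raised the difference of every member by the same amount, so these overlaps of calls follow mostly from it. Departures were uneven along the chromosome. At 80 to 90 Mb 28 of 118 loci departed down and 7 up, and at 120 to 130 Mb 7 of 93 departed down and 28 up. Without WT 1 the counts over all members were 90 higher and 59 lower, and without Nlk-KO 3 the lower count was 62. Of all members, 242 (37.5%) lay within 0.1 of the chromosome 10 median and 403 (62.4%) within 0.2, and 40.0% of other loci lay within 0.1 of their own median.

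Among the 121 single-gene members of at least 5 FPKM that departed and whose genotypes did not overlap, 54 were higher and 67 lower. Overlap was judged on FPKM that still held the shift, which favours downward departures, so these counts show no balance. Among all members 136 departed up and 99 down. For genes named from this set, separation of the genotypes was a condition of choice and is no added support. The highest of the 121 was Cnn2, which encodes the actin-binding protein calponin 2 (chr10:79988584-79996062, protein coding, plus strand). It stood at 39.1, 40.9 and 36.5 FPKM in WT and at 131, 124 and 129.9 FPKM in Nlk-KO libraries. The gene rose by 1.72 (SE 0.048, adjusted p = 1.08e-06, limma), or by 1.91 relative to the chromosome. Its promoter is the one above with a CArG box. Mknk2, Ranbp2 and 4930455C13Rik, whose promoters also hold one, had differences of -0.28, -0.08 and -0.34. The reads of Cnn2 belong to the largest shared locus, so that its assignment rests on the authors' transcript models. The same holds for Reep6, 2310011J03Rik, Gamt, Gpx4, Bsg and the merged Atp5d and Midn, which share that locus.

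Next among these genes came H60b, C920009B18Rik, Socs2 and Lama4. H60b, a ligand of the natural killer receptor NKG2D, stood at 6.66, 5.86 and 5.64 FPKM in WT and 16.1, 14.0 and 15.7 FPKM in Nlk-KO libraries, a rise of 1.32 (adjusted p = 2.53e-05, limma). Its neighbour C920009B18Rik, annotated as a transcribed pseudogene, stood at 46.7, 59.2 and 64.9 FPKM against 138, 138 and 128 FPKM and rose by 1.26 (adjusted p = 0.000177, limma). Both overlap Raet1e, and without a stated strand their reads cannot be told from it. Socs2, a feedback inhibitor of JAK-STAT signalling, stood at 11.6, 12.2 and 13.1 FPKM in WT and 26.0, 24.0 and 27.3 FPKM in Nlk-KO libraries, a rise of 1.06. Lama4, a laminin chain of basement membranes, stood at 4.25, 3.71 and 3.95 FPKM against 7.85, 7.72 and 7.55 FPKM and rose by 0.94. Adjusted p for the last 2 was 2.53e-05 and 3.46e-05 (limma).

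Abracl stood at 60.5, 60.3 and 55.4 FPKM in WT and at 113, 110.5 and 114 FPKM in Nlk-KO libraries. The gene, near the proximal end of the chromosome, rose by 0.93 (SE 0.042; adjusted p = 8.39e-06, limma). Bves, a cAMP-binding membrane protein of the Popeye family, stood at 22.2, 20.9 and 19.6 FPKM against 36.1, 33.4 and 35.5 FPKM and rose by 0.74. Kcnmb4, the neuronal accessory subunit of the large-conductance calcium-activated potassium channel, stood at 4.44, 5.24 and 5.03 FPKM against 8.53, 8.16 and 7.12 FPKM and rose by 0.68. Its coordinates are shared with another locus. Phyhipl rose by 0.69, from 6.57 ± 0.652 to 10.6 ± 0.223 FPKM (SD, n = 3), and Fam13c by 0.61, from 13.3 ± 0.274 to 20.4 ± 0.489 FPKM. These 2 genes overlap on opposite strands, so their values are not independent. A second locus named Fam13c rose by 0.30, and its departure of 0.48 was not called (adjusted p = 0.126, limma). Adjusted p for the last 4 genes was 2.39e-05 to 0.00101 (limma).

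On the other side, the lowest gene of at least 5 FPKM was D10Bwg1379e (chr10:18581839-18743949, protein coding, minus strand), a member of the family of guanine nucleotide exchange factors for Arf. It stood at 7.70, 7.13 and 7.57 FPKM in WT and at 3.03, 2.56 and 2.61 FPKM in Nlk-KO libraries. The gene fell by 1.42 (SE 0.074; adjusted p = 1.56e-05, limma), or by 1.24 relative to the chromosome. Myb (chr10:21124935-21160984, protein coding, minus strand), the proto-oncogene transcription factor of progenitor cells, stood at 16.2, 16.0 and 15.8 FPKM in WT. In Nlk-KO libraries it stood at 9.02, 8.13 and 8.42 FPKM, and it fell by 0.90 (SE 0.046, adjusted p = 1.44e-05, limma).

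**Figure D4:**
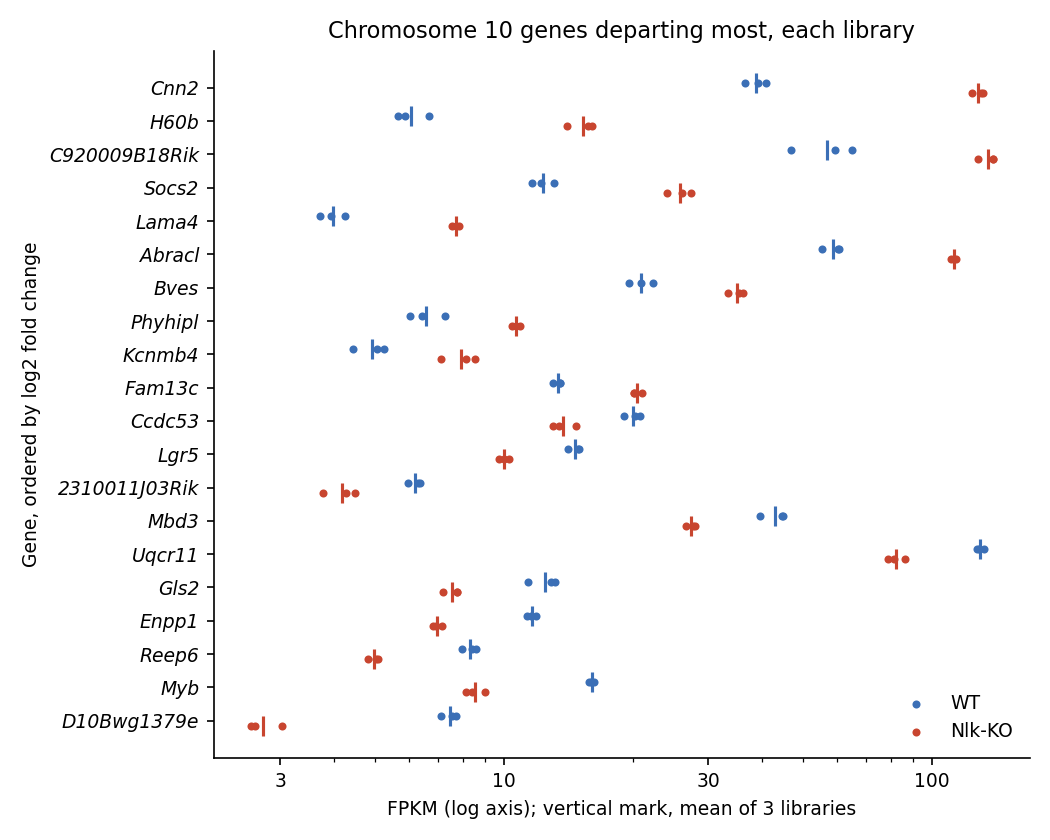
FPKM of the 10 highest and 10 lowest genes by fold change among departing single-gene members of at least 5 FPKM (horizontal axis, log scale), 1 point per library and a vertical mark for the mean of 3, WT in blue and Nlk-KO in red. The 10 upper genes run from Fam13c to Cnn2. Lack of overlap between genotypes was a condition of choice for all genes shown.

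Enpp1, which makes pyrophosphate from extracellular ATP, stood at 11.3, 11.9 and 11.5 FPKM in WT and 6.91, 6.82 and 7.15 FPKM in Nlk-KO libraries and fell by 0.73. Gls2, a mitochondrial glutaminase, stood at 12.9, 13.2 and 11.4 FPKM against 7.19, 7.74 and 7.76 FPKM and fell by 0.71, although its reads overlap Spryd4. Uqcr11, a small subunit of respiratory complex III, stood at 127, 132 and 128 FPKM against 86.4, 78.8 and 81.4 FPKM and fell by 0.65. Adjusted p was 2.01e-05, 0.000197 and 4.03e-05 for these 3 genes (limma).

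Mbd3, a core subunit of the NuRD deacetylase complex encoded close to Uqcr11, stood at 44.6, 44.8 and 39.6 FPKM in WT and 26.5, 27.9 and 27.6 FPKM in Nlk-KO libraries and fell by 0.65. Lgr5, a receptor for R-spondins that potentiates Wnt signalling, stood at 14.1, 14.8 and 14.9 FPKM against 10.2, 9.96 and 9.72 FPKM and fell by 0.55, with its reads shared with the overlapping A930009A15Rik. Reep6, a protein of endoplasmic reticulum membranes, fell by 0.73 from 8.32 ± 0.332 to 4.96 ± 0.141 FPKM (SD, n = 3). Ccdc53, a subunit of the endosomal WASH complex, fell by 0.54 from 20.3, 20.8 and 19.0 FPKM in WT to 13.4, 13.0 and 14.7 FPKM in Nlk-KO libraries. 2310011J03Rik fell by 0.56 from 6.20 ± 0.206 to 4.17 ± 0.367 FPKM and overlaps Apc2. Relative to the chromosome these 5 genes fell by 0.46, 0.36, 0.55, 0.36 and 0.38, and adjusted p for the differences themselves was 4.62e-05 to 0.000988 (limma). Without the filter on low values the departures of Ccdc53 and 2310011J03Rik were no longer called (adjusted p = 0.0632 for Ccdc53, limma), and against a null of 1.2-fold those of Lgr5, Ccdc53 and 2310011J03Rik were not (0.310 to 0.423). The genes 2310011J03Rik, Reep6, Mbd3 and Uqcr11 lie close together, with starts from base 80318254 to base 80402997, so their departures belong to 1 stretch of the chromosome.

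Further changes of more than 2-fold were found at mean levels below 5 FPKM, and the 5 genes named here were chosen after their values had been seen. Usp44, a deubiquitinase of the mitotic checkpoint and of histone H2B, stood at 6.88, 7.59 and 7.25 FPKM in WT and 1.73, 1.91 and 1.96 FPKM in Nlk-KO libraries and fell by 1.90 (SE 0.069; adjusted p = 2.77e-06, limma). Ndufa4l2, a mitochondrial protein known as a target of hypoxia-inducible factor, stood at 3.59, 2.39 and 3.33 FPKM against 0.119, 0.247 and 0.171 FPKM and fell by 3.53, and it overlaps Shmt2. Ptprr, a tyrosine phosphatase of MAP kinases, fell by 1.26 from 2.96 to 1.19 FPKM, and BC030307 fell by 1.06 from 2.60 to 1.21 FPKM (adjusted p = 0.000837 and 0.000788, limma). Usp44 and Ptprr also share their coordinates with other loci, and Ptprr overlaps 4933416C03Rik. Col6a1, a chain of collagen VI, stood at 0.700, 0.778 and 0.706 FPKM in WT and at 1.78, 1.83 and 1.83 FPKM in Nlk-KO libraries and rose by 1.21 (adjusted p = 0.000107, limma).

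Chromosome 10 genes were then grouped into 10 lists by role. Counts of calls are set beside the 50.5% of members called lower and 8.05% called higher. Counts of departures are set beside the 21.1% of members departing up and 15.3% departing down, and several lists lie near these shares. Median differences of 9 lists lay between -0.25 and -0.17, near the chromosome's -0.20, and the list for adhesion, matrix and cytoskeleton stood at -0.05. The lists were written with earlier results of these data known. The list for adhesion, matrix and cytoskeleton holds Cnn2, Timp3 and Col6a1, among the largest rises of the chromosome, so its median is no independent result. No list was tested as a set.

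**Figure D5:**
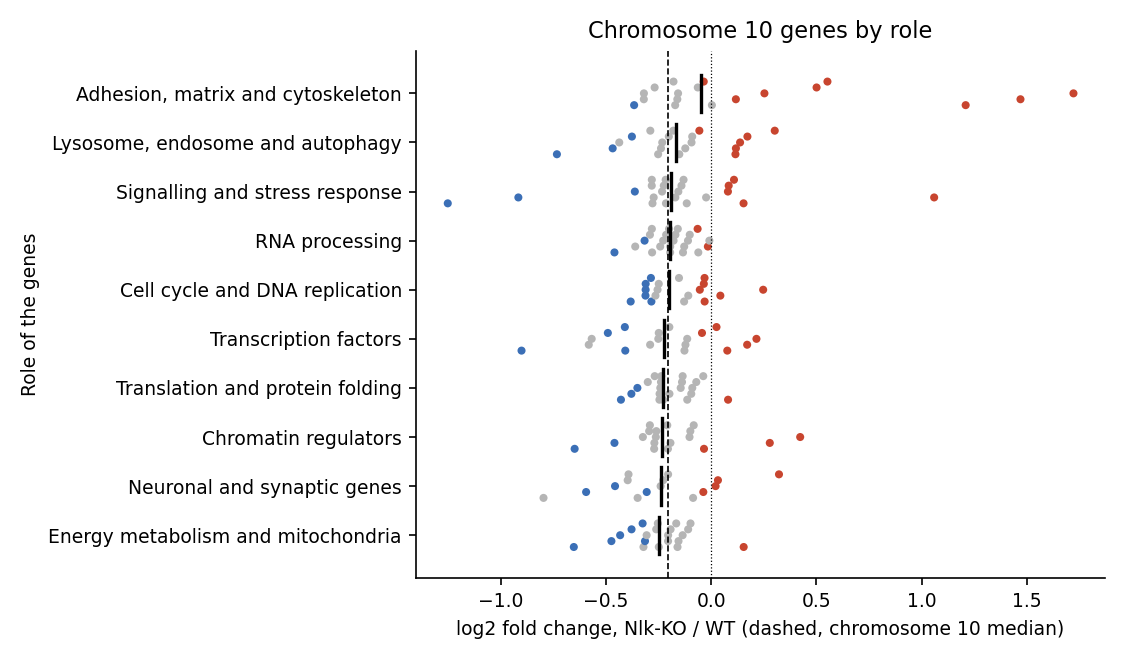
The log2 fold change of each listed chromosome 10 gene (horizontal axis) by role (vertical axis), with grey points for genes not departing from the chromosome, red for departing up, blue for departing down, and black bars for list medians. Medians of 9 roles lie near the dashed chromosome 10 median of -0.20, and adhesion, matrix and cytoskeleton lies at -0.05 with 8 of 18 loci departing up. The lists were written with earlier results of these data known.

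Of 18 loci for adhesion, matrix and cytoskeleton, 8 were called lower and 5 higher, and against the chromosome 8 departed up (Cnn2, Timp3, Col6a1, the merged Myl6 and Myl6b, Itga7, Lrp1, Csrp2 and P4ha1) and only Fyn departed down. Timp3, an inhibitor of matrix metalloproteinases that lies within Syn3, stood at 0.925, 0.732 and 0.808 FPKM in WT and 2.45, 2.50 and 2.39 FPKM in Nlk-KO libraries and rose by 1.47 (SE 0.104; adjusted p = 6.18e-05, limma). The myosin light chain locus of Myl6 and Myl6b stood at 447, 444 and 444 FPKM against 640.2, 624 and 696 FPKM and rose by 0.55. Bsg, the transmembrane glycoprotein basigin, moved with the chromosome, at 630.2 ± 17.0 FPKM in WT and 559.9 ± 25.1 FPKM in Nlk-KO libraries (log2 -0.17, departure 0.01). The summed fibroblast markers given above were also higher in Nlk-KO libraries, though of the 7 only Fbln1 and Pdgfra exceeded 0.5 FPKM. Their part in these values was not tested.

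Of 20 loci for lysosome, endosome and autophagy, 11 were called lower and 2 higher. Against the chromosome 6 departed up (Cd63, Cd164 and Sgpl1 among them) and 3 departed down (Reep6, Gnptab and Eea1), with the other 11 not called. Reep6, the largest fall of the list, is a protein of endoplasmic reticulum membranes and vesicle traffic rather than of lysosomes, and the next fall was that of Gnptab, which builds the mannose 6-phosphate tag of lysosomal enzymes, by 0.47. Cd63, a tetraspanin of late endosomes and lysosomes, stood at 114, 117 and 125 FPKM in WT and 149, 141 and 149 FPKM in Nlk-KO libraries and rose by 0.30 (SE 0.046; adjusted p = 0.00223, limma). Cd164, a sialomucin of endosomes and lysosomes, stood at 134, 133 and 135 FPKM against 150.2, 136 and 150.3 FPKM, a difference of 0.12 that was not called (adjusted p = 0.0892), although it departed from the chromosome by 0.30 (adjusted p = 0.00169, limma). Psap, the precursor of the saposins that activate lysosomal sphingolipid hydrolases, fell with the chromosome, from 342 ± 2.13 to 297 ± 9.75 FPKM (log2 -0.20, departure -0.02).

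Energy metabolism genes were mostly called lower, 17 of 21 loci with none higher, and their median was -0.25. Atp5b, the beta subunit of ATP synthase, stood at 1598, 1642 and 1564 FPKM in WT and 1410.1, 1339 and 1454 FPKM in Nlk-KO libraries. Its groups did not overlap, but the difference of -0.19 was not called (adjusted p = 0.0740, limma), and its departure was -0.0080. The merged locus of Atp5d, the delta subunit, and Midn fell by 0.32, and its departure (adjusted p = 0.138) passed the threshold only without WT 3 (0.0235, and up to 0.314 without another library, limma). Departing down were Uqcr11, Ndufs7, Cisd1, Hk1, Slc25a3 and Supv3l1, and departing up was Gamt, the last enzyme of creatine synthesis, at 8.31 ± 0.398 FPKM in WT and 9.27 ± 0.521 FPKM in Nlk-KO libraries (departure 0.34, adjusted p = 0.00161, limma).

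Genes for translation and protein folding likewise followed the chromosome, with 14 of 21 called lower, none called higher and 3 and 1 departing down and up. Among the most abundant members of the chromosome were ribosomal protein genes. Rps12 stood at 2181, 2164 and 2237 FPKM in WT and 1592, 1638 and 1659 FPKM in Nlk-KO libraries and fell by 0.43 (SE 0.075; adjusted p = 0.00426, limma). Rps26, at 3009.8 ± 55.8 against 2734 ± 71.1 FPKM, and the merged Rpl41 and Zc3h10, at 4121 ± 412 against 3796 ± 50.1 FPKM, had differences of -0.14 and -0.11 that were not called. Naca, a chaperone of nascent chains at the ribosome, stood apart at 732 ± 33.2 against 773 ± 30.1 FPKM and departed up by 0.27. The departure of Rps12 (adjusted p = 0.0408) was lost without any 1 library (adjusted p 0.0654 to 0.127), and that of Naca (adjusted p = 0.0172) without WT 1, WT 2, Nlk-KO 1 or Nlk-KO 3 (0.0044 to 0.0701 over the 6 libraries left out, limma).

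RNA processing genes were all negative, with 14 of 23 called lower, 9 not called and a range of -0.46 to -0.0087. Pan2, a catalytic subunit of the deadenylase that shortens poly(A) tails, fell by 0.46 from 24.2 ± 1.10 to 17.6 ± 1.70 FPKM. Its departure of -0.27 (adjusted p = 0.0498, limma) was lost without any library but Nlk-KO 2 (0.0302 to 0.122). Cdc40, a factor of the second step of splicing, did not share the shift, at 21.3 ± 0.546 against 21.1 ± 0.655 FPKM, and departed up by 0.17 (adjusted p = 0.00534). Snrpd3, a core spliceosomal Sm protein, and Nap1l1, a histone chaperone rather than an RNA processing factor, had differences of -0.13 and -0.10, neither called. The other departures of this list were Hnrnph3, down, and the merged Bclaf1 and Mtfr2, up.

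Chromatin regulators had 12 of 18 called lower and 2 higher. Tet1, which oxidizes methylated cytosine, stood at 1.38, 1.31 and 1.51 FPKM in WT and 2.07, 1.92 and 1.76 FPKM in Nlk-KO libraries and rose by 0.42 (SE 0.097; adjusted p = 0.0130, limma). Mbd3, described above, fell, as did Smarcb1, a core subunit of SWI/SNF complexes, by 0.26 from 89.1 ± 6.24 to 74.1 ± 0.299 FPKM. Without WT 3 the departure of Smarcb1 from the chromosome passed the threshold (adjusted p = 0.0386, against 0.187 with all libraries and up to 0.466 without another). Hdac2, a histone deacetylase, stood at 182 ± 1.71 against 170 ± 6.55 FPKM, a difference of -0.10 that was not called.

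Transcription factors had 9 of 18 called lower and 1 higher. Besides Myb, departures down were those of Ddit3, Tcf3 and Aes, and departures up were those of Stat6, Cited2, Nfic, Elk3 and Esr1. Stat6, which relays interleukin 4 signals, stood at 11.5, 11.5 and 10.8 FPKM in WT and 12.8, 13.4 and 13.1 FPKM in Nlk-KO libraries and rose by 0.22 (SE 0.041; adjusted p = 0.00626, limma). Aes, a short co-repressor of the Groucho family, fell by 0.41 from 93.5 ± 6.21 to 70.3 ± 2.00 FPKM. Cited2, a CBP/p300-binding regulator, stood level at 57.1 ± 2.44 against 58.1 ± 1.17 FPKM and thus departed up by 0.21 (adjusted p = 0.0015, limma).

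Signalling and stress response genes had 14 of 22 called lower and 1, Socs2, called higher. Gadd45b (chr10:80930073-80932204), a stress-induced activator of p38 and JNK signalling, stood at 7.18, 7.22 and 6.68 FPKM in WT and 2.82, 2.87 and 2.98 FPKM in Nlk-KO libraries. It fell by 1.25 (SE 0.054; adjusted p = 6.63e-06, limma), the largest fall on this list. Dusp6, a phosphatase of ERK, and Erbb3, a receptor of the EGF receptor family, also departed down, while Ddit4, Ifngr1, Dgka and Nuak1 departed up. Rap1b, a Ras-like GTPase, fell by 0.28 from 236 ± 5.17 to 194 ± 11.6 FPKM, and Gpx4, which reduces lipid peroxides, fell by 0.23 from 174 ± 9.44 to 148 ± 2.65 FPKM, both without departing.

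Cell cycle genes had 9 of 18 called lower, with 6 departing up, 6 departing down and 6 not departing. Zbtb39, whose role in the cell cycle was not checked here, was the only one called higher. It stood at 7.29, 6.92 and 6.87 FPKM in WT and 8.21, 8.60 and 8.25 FPKM in Nlk-KO libraries (log2 0.25, SE 0.044; adjusted p = 0.00446, limma). Cdk4, the G1 kinase, stood at 268 ± 13.1 against 258 ± 7.04 FPKM, and Tmpo, a lamina-associated protein, fell by 0.29 from 111 ± 1.83 to 90.8 ± 2.31 FPKM. Departures of Cdk4 (0.13, adjusted p = 0.0358) and Tmpo (-0.10, adjusted p = 0.0432, limma) were each lost without any library but WT 2, with adjusted p of 0.0290 to 0.131 and 0.0404 to 0.134. The kinase Dyrk2 departed up by 0.23 (adjusted p = 0.0431), a call lost without any library but Nlk-KO 3 (0.0157 to 0.133).

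Neuronal and synaptic genes had 10 of 15 called lower and 1 higher. The gene called higher was Adarb1, an adenosine deaminase that edits glutamate receptor mRNA, at 7.70, 8.14 and 7.22 FPKM in WT and 9.87, 9.60 and 9.42 FPKM in Nlk-KO libraries (log2 0.32, SE 0.052; adjusted p = 0.00304, limma). Ppfia2, a liprin of the presynaptic active zone, fell by 0.59 from 4.52 ± 0.224 to 2.96 ± 0.256 FPKM. Dctn2, a subunit of dynactin, fell by 0.31 from 106 ± 3.06 to 85.9 ± 2.40 FPKM, and its departure of -0.12 was lost without WT 1, Nlk-KO 1 or Nlk-KO 2 (adjusted p 0.0310 to 0.0787, limma). Syt1, the calcium sensor of synaptic vesicles, stood at 45.4 ± 2.14 against 46.5 ± 2.70 FPKM, and its departure of 0.22 was lost without WT 1, WT 2, Nlk-KO 1 or Nlk-KO 3 (0.0047 to 0.0877).

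The most abundant single genes of the lowest window, at 80 to 90 Mb, were Eef2, Hsp90b1 and Oaz1. Eef2, the elongation factor that moves the ribosome along mRNA, stood at 1003, 989 and 915 FPKM in WT and 815, 809 and 787 FPKM in Nlk-KO libraries and fell by 0.27 (adjusted p = 0.0126, limma). Oaz1, the antizyme that controls polyamine synthesis, fell by 0.25 from 401 ± 14.2 to 338 ± 8.58 FPKM, and Hsp90b1, a chaperone of the endoplasmic reticulum, fell by 0.20 from 421 ± 28.8 to 366 ± 13.9 FPKM. None of the 3 departed from the chromosome. In the highest window, at 120 to 130 Mb, they were Rps26 and Atp5b, described above, and Mir677, a microRNA gene within Atp5b that was listed at 45893, 0 and 43667 FPKM in WT and at 0 in every Nlk-KO library. Values of so short a locus in FPKM can jump within 1 genotype, as they did here in WT, and without WT 2 alone it passed the threshold of the departure test (adjusted p = 2.61e-11, against 0.0868 with all libraries and up to 0.231 without another).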

How the data were processed

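The authors aligned the reads (Illumina, paired-end, poly(A) RNA) to GRCm38/mm10 with TopHat2 (2.1.0) and estimated expression with Cufflinks (2.2.1) and Cuffnorm, and the authors deposited FPKM for each locus and library. The annotation they used, library strandedness and read totals are not stated in any source read for this work. FPKM values are relative to the rest of each library. The authors' columns of p-values and fold changes were not used. Each library column was mapped by its name. Of 26 symbols stored as dates, 24 were resolved by locus.

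The 12667 loci averaging 0.5 FPKM or more were fitted as log2(FPKM + 0.1) with limma (3.58.1, R 4.3.3; trended prior), 3 Nlk-KO against 3 WT libraries, with Benjamini-Hochberg adjustment over all of them and a threshold of 0.05. Adding 0.1 understates changes of low genes. For departures, each chromosome's median was subtracted in each library first. The fit was tested on simulated data. An exact permutation test of 3 against 3 libraries cannot go below 0.1, so none was run. The relative depths come from whole-read steps among values under 0.2 FPKM, with 65.4% to 73.2% of values within 0.02 (log2) of a step.

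Members and lists were chosen with earlier results of these data known. Named were the 10 highest and 10 lowest departing single-gene loci of at least 5 FPKM without overlap, from each list the 2 most abundant members and up to 2 with the largest departures, the 3 most abundant genes of the extreme windows, the loci nearest 0.5 FPKM and Nlk. Gene positions and types are from GENCODE M21 (GRCm38), promoters from RefSeq. Alternatives changed the pseudocount, filter, scaling, locus set, fold required, block, libraries and windows.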

Additional observations from a re-analysis of the deposited data

How the results depend on the processing

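The median of chromosome 10 moved to -0.17 with a pseudocount of 1, -0.14 without the filter on low values, -0.0020 with the same sum of FPKM, -0.14 with the same sum over loci of at least 300 bp with a symbol, and -0.29 among the 162 weakest members. Leaving out 1 library gave -0.206 to -0.186. Relative to other loci under the same setting, the median over all members lay between -0.203 and -0.148 with every pseudocount, filter, scaling, locus set and library left out. The 162 weakest members are set beside a median of -0.02 for other loci in their range. The count called lower (326) was 3 and 23 with these sums and 43 against a null of 1.2-fold, and 275 to 316 without 1 library. The count called higher (52) was 0, 20 and 23, and 49 to 55. Downward departures (99) numbered 42 without the filter and 16 against a null of 1.2-fold, and 59 to 86 without 1 library. Without the filter the set grew to 1025 loci, and the step removed -0.23 where the median difference was -0.14, which makes downward departures fewer. Upward departures (136) numbered 38 against a null of 1.2-fold and 90 to 134 without 1 library. In windows of 5 Mb with at least 20 loci the lowest median was -0.30.

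Replicate numbers did not pair the libraries (correlations of same-numbered deviations 0.037, 0.060 and -0.132, and not every library correlated best with its own number). With the replicate number as a block, 303 were called lower, 54 higher, and 69 and 112 departed down and up. Without the filter on low values, the departures of 2310011J03Rik, Ccdc53, Pan2, Rps12, Aes, Dctn2, Tmpo, Cdk4, Cdc40, Syt1 and Naca were no longer called. Against a null of 1.2-fold, neither were these or those of Ppfia2, Lgr5, Cited2, Dyrk2, Cd164, Gamt, Stat6, Zbtb39 and Tet1. The block ended the departure calls of Rps12, Dctn2, Tmpo and Cdk4. Of 1122 checks of named genes, 77 lost their call, 3 gained one and none changed direction while called. Chosen after seeing the data, removal of each chromosome's median deviation gave 107 and 138 departures, and removal of that of the 10 Mb window gave 101 and 126, with the calls of Rps12, Tmpo and Cdk4 lost. The cause of these differences was not tested. Depth limits the low loci, where replicates spread widely.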
